A study of Caenorhabditis elegans with 6 samples.

Results

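The 3 libraries without cycloheximide, of 6 in the series, were chosen by their treatment label, and ribosome footprints over the genes of untreated worms are described here. The animals were whole Caenorhabditis elegans hermaphrodites at the L4 stage, the last larval stage, grown for 2 days at 23 °C from synchronized eggs placed on plates with no drug. Every animal carried the genotype rpl-36A(P55Q)/mIn1, which is heterozygous for a P55Q change in a large-subunit ribosomal protein and carries the balancer mIn1, so no library here shows a wild-type animal. Cycloheximide, used on the other 3 libraries, blocks translation elongation, and those libraries are not compared here. Whether the replicates came from separate cultures is not stated, and part of their spread may be technical.

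A ribosome shields a short stretch of the mRNA that it is translating, and sequencing those stretches shows where the animal's ribosomes are. A gene's share of footprints grows with the amount of its mRNA, with how densely ribosomes load it and with the length of its coding sequence. A larval worm builds a new cuticle at each moult, enlarges its muscles and intestine, and in the L4 stage starts to form sperm in the hermaphrodite gonad. The epidermis secretes the collagens of the cuticle, and the intestine secretes yolk proteins toward adulthood.

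The libraries held 1639682, 1786600 and 1842865 reads in replicates 1, 2 and 3, and all triplets of values below keep that order. Values are read counts scaled to a common library total (CPM, a gene's fraction of its library's reads on the usual CPM scale), with the SD over n = 3 libraries. Of 20189 protein-coding genes, 15896 had a read and 12368 had at least 10 reads over the 3 libraries. A gene with no read could still hold up to 0.569 CPM, the level of 3 reads in all, and this limit covers counting error only. Replicate 3 stood apart: a chi-square over genes, per degree of freedom, was 3.91 against replicate 1 and 3.65 against replicate 2, and 2.07 between replicates 1 and 2. Coding lengths were not used here, so a share compares the ribosomes that genes occupied, and no order of level per length is drawn between genes. A gene is said to vary where its reads over the 3 libraries departed from the library totals (chi-square test of homogeneity on genes with at least 30 reads, Benjamini-Hochberg adjusted p under 0.05). That test sets libraries against counting error and compares no conditions. Genes with more reads passed it more often: 3.62% between 10 and 30 CPM, 19.6% between 100 and 300 CPM, 42.8% between 300 and 1000 CPM and 69.4% from 1000 CPM. The share of all genes that varied, given beside the lists below, is therefore a low yardstick for lists of abundant genes.

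Few genes held most of the footprints. 643 genes held 50% of the reads, and the number was 624, 665 and 632 within the libraries. The 100 genes with the most reads held 19.3%, 18.6% and 19.6%. At the other end, 90% of the reads lay in 4791 genes, and 4293 genes were without a read. The 3 curves of cumulative share nearly coincide.

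**Figure D1:**
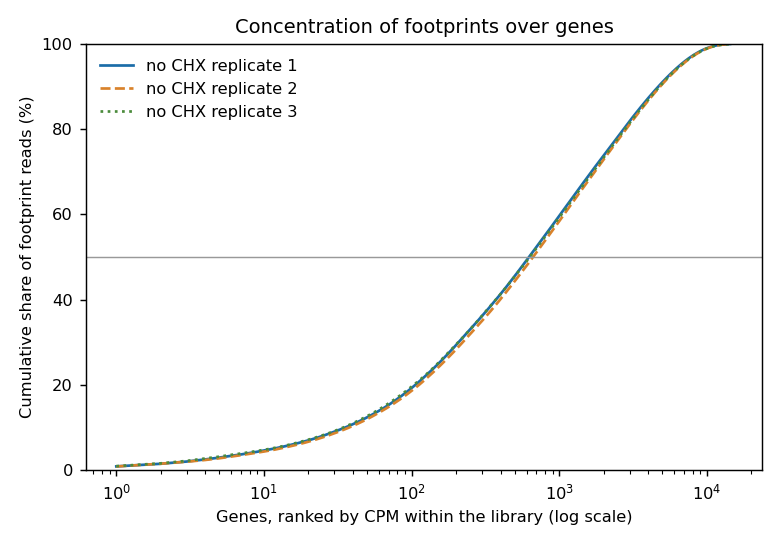
Cumulative share of footprint reads (%, y axis) against genes ranked by CPM within each library (x axis, log scale), with a line for each of the 3 no CHX libraries. The grey line marks 50%, which the libraries reach at 624, 665 and 632 genes.

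The largest footprint share of any gene fell on eef-1A.1, the elongation factor that brings aminoacyl-tRNA to the ribosome, with 8756, 8489 and 9312 CPM (chromosome III, 6970026 to 6972003, WBcel235). unc-54, the main myosin heavy chain of body wall muscle, had 6121, 6516 and 5766 CPM. Of these, eef-1A.1 was highest in replicate 3 and unc-54 in replicate 2, and both varied. The constitutive cytosolic HSP70 hsp-1 followed with 4955, 4691 and 6568 CPM (chromosome IV, 17278959 to 17281330). The chaperone hsp-90 had 4331, 3926 and 5629 CPM (chromosome V, 14685885 to 14688543). Both chaperones were highest in replicate 3 and lay closer together in replicates 1 and 2. The yolk protein vit-6 had 5253, 4034 and 4392 CPM (chromosome IV, 8261145 to 8266462), and eef-2, the factor that moves the ribosome along by a codon, had 4168, 4071 and 4196 CPM. The eef-2 libraries lay close together and the gene did not pass the test.

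Lipid carriers came next: npa-1, a polyprotein that binds fatty acids, averaged 3219 ± 179.6 CPM, and far-2, a fatty acid and retinol binding protein, averaged 2918 ± 296 CPM. The ATP synthase subunits atp-1 and atp-2 averaged 2538 ± 13.95 CPM and 2498 ± 70.8 CPM. Among the 20 genes with the most footprints were also the collagens col-77, col-138, col-71 and col-38, the yolk protein vit-2, the ribosomal proteins rpl-3 and rpl-2, the actin act-4, the acyl-CoA dehydrogenase acdh-1 and C17F4.7, a gene that the table names by sequence only. C17F4.7 had 2626, 2468 and 1883 CPM, lowest in replicate 3.

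**Figure D2:**
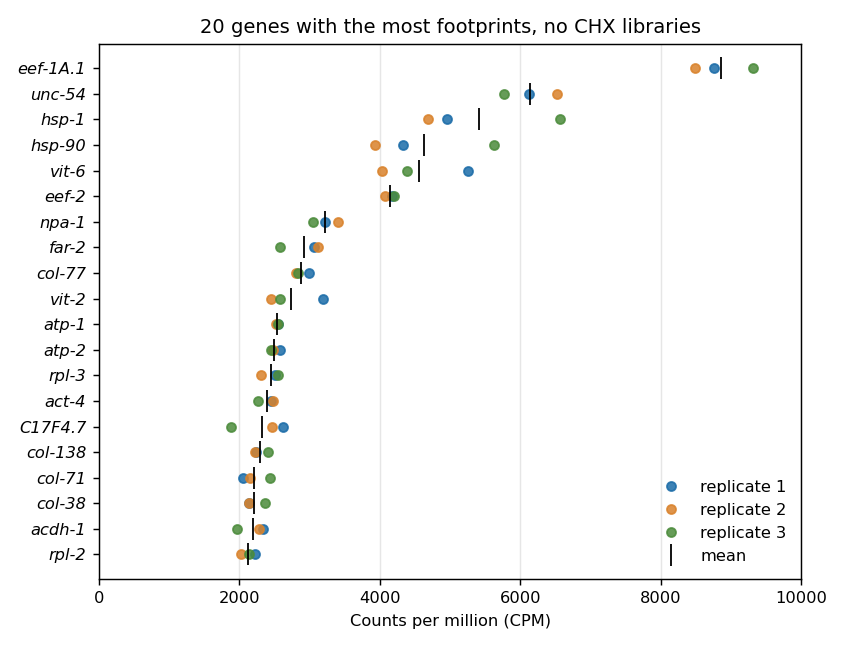
CPM (x axis) of the 20 genes with the highest mean CPM over the no CHX libraries, with a coloured point for each library and a bar at the mean. eef-1A.1 averages 8852 CPM and rpl-2 averages 2124 CPM, and replicate 3 sits to the right of the others for hsp-1 and hsp-90.

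The protein-making machinery took 11.3% ± 0.446 of all footprints over 156 genes. Cytosolic ribosomal proteins made up most of that, at 8.08%, 7.48% and 8.13%. The large subunit held 4.76% ± 0.231 over 50 genes and the small subunit 3.13% ± 0.131 over 31. rpl-3, a core protein of the large subunit, had 2504, 2308 and 2551 CPM. The small-subunit proteins with the most footprints were rps-23 (1862, 1739.6 and 1968 CPM) and rps-0 (1640.0, 1584 and 1735 CPM). All 3 of these genes were lowest in replicate 2.

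rpl-36.A, the gene that carries the P55Q change, had 876, 860.3 and 973 CPM (chromosome II, 11096542 to 11097204). The median of the other large-subunit genes on the list was 928 CPM. Lists were matched to the names in the table, and 2 large-subunit genes that RefSeq names but the table gives by sequence stand outside them: Y37E3.8 (rpl-27A) had 1435, 1322 and 1485 CPM and W01D2.1 (rpl-37.1) averaged 169 ± 12.8 CPM. With them the large subunit held 4.92% ± 0.240. The table counts reads per gene, so the mutant and the balancer allele are not told apart. Of the 81 ribosomal protein genes on the lists, 80 had at least 10 reads, and rpl-37 was listed at 0. The gene rpl-42 averaged 2.79 ± 1.38 CPM. 45 of 79 tested ribosomal protein genes varied, 41 of them lowest in replicate 2, against 10.4% of all genes tested that varied and 2.43% that varied with replicate 2 lowest. With replicate 2 left out, 12 of 79 varied, against 8.29% of all genes, and without replicate 1 it was 34 of 79, against 8.26%. Genes with more reads passed this test more often: 69.4% passed among genes of at least 1000 CPM and 42.8% between 300 and 1000 CPM.

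Elongation and termination factors held 1.73% ± 0.0563 over 10 genes, and eef-1A.1 took 51.1% of that. The second eEF1A gene, eef-1A.2, had 889, 782 and 683 CPM, lowest in replicate 3 where eef-1A.1 was highest. The copies are close in sequence, so the split of reads between them is uncertain. Initiation factors held 0.921% ± 0.0213, led by inf-1, an eIF4A helicase, at 969 ± 63.5 CPM. Aminoacyl-tRNA synthetases, which charge tRNAs, held 0.720% ± 0.0121, led by tars-1 at 505 ± 24.6 CPM, and 1 of 31 tested varied (10.4% of all genes). Ribosome biogenesis genes on the list held 0.603% ± 0.0250, led by fib-1, the fibrillarin of the nucleolus, at 920.0 ± 66.6 CPM. The list leaves out K07H8.10, which RefSeq names nucl-1, a nucleolin, at 1275 ± 65.5 CPM. Mitochondrial ribosomal proteins held 0.523% ± 0.0147, spread so evenly that 24 of 71 genes made up 50% of it.

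Cuticle collagens took the largest share of the 62 gene lists, with 6.20%, 5.89% and 5.91% of all footprints. The ribosomal subunits stand on 2 of these lists, which together held more, 7.89% ± 0.363. The collagen family had 177 genes, of which 131 had at least 10 reads and 22 had none. 18 collagens held 50% of the family's reads, and 26 had a mean of at least 1000 CPM. col-77 had 2997, 2799 and 2835 CPM (chromosome II, 8358228 to 8359381) and was highest in replicate 1. col-138 had 2233, 2221 and 2405 CPM, col-71 had 2049, 2154 and 2438 CPM and col-38 had 2132, 2133 and 2360.5 CPM, and each was highest in replicate 3. dpy-5, a collagen whose loss gives short, stout worms, had 1827, 1933 and 2116 CPM. Of the members, 65 of 116 tested varied (10.4% of all genes), 35 of them highest in replicate 1 (background 3.09%), 12 in replicate 2 (background 3.59%) and 18 in replicate 3 (background 3.74%). Among the 30 collagens with the most reads, 13 varied with replicate 1 highest, 11 with replicate 3 highest and 0 with replicate 2 highest. Of all genes of at least 1000 CPM, a level that 26 collagens reached, 69.4% varied.

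Other secreted matrix was smaller. Basement membrane genes held 0.635% ± 0.0471, with ost-1, the SPARC protein, at 1138, 1207 and 1047 CPM and unc-52, perlecan, at 922, 878 and 924 CPM. The type IV collagen chains let-2 and emb-9 averaged 895 ± 73.9 CPM and 643 ± 74.7 CPM. 8 of 13 tested varied (10.4% of all genes), all 8 lowest in replicate 3 (4.77% of all genes), and 0 of 13 passed with replicate 3 left out (4 at an unadjusted p under 0.05), against 3.17% of all genes. Cuticlins and precuticle genes, which shape the apical matrix around a moult, held 0.196% ± 0.0242, led by cut-2 at 499.8 ± 35.8 CPM. Hedgehog-related and patched-related genes, many of them tied to moulting, held 0.733% ± 0.0331, of which grl-16 alone took 26.8% with 2054, 1941 and 1898 CPM.

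**Figure D3:**
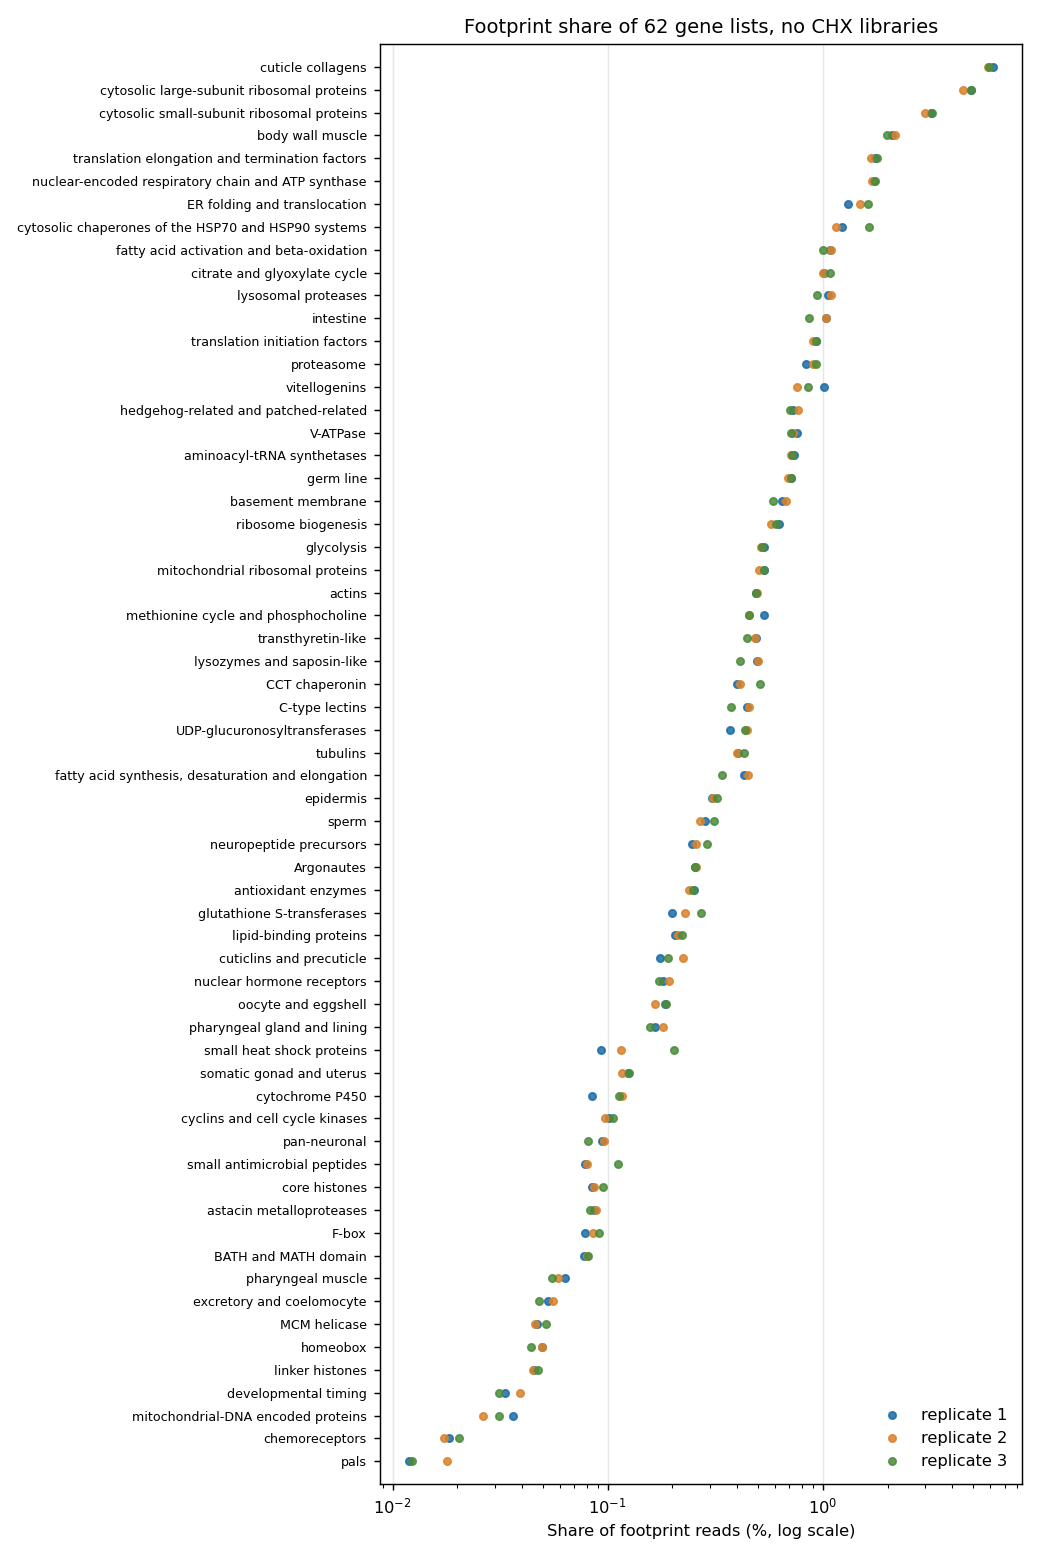
Share of footprint reads (%, x axis, log scale) of each of 62 gene lists (y axis, ordered by mean share), with a coloured point for each no CHX library. Cuticle collagens lead with 6.001%, where the ribosomal subunits are drawn as separate lists, and the points of small heat shock proteins lie farthest apart of the lists above 0.1%.

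Of the tissue marker lists, body wall muscle held the most footprints. The 28 body wall muscle genes held 2.09%, 2.16% and 1.99%, and all had at least 10 reads. In bulk animals, fewer cells of a type and less RNA per cell cannot be told apart. Below unc-54 came unc-15, the paramyosin of the thick filament, with 2119, 2118 and 1964 CPM, and pat-10, a troponin C, with 1308, 1427 and 1462 CPM. The tropomyosin lev-11 averaged 1382 ± 56.4 CPM and the troponin T gene tnt-2 1177 ± 54.1 CPM. 9 of 28 tested varied (10.4% of all genes), 7 of them lowest in replicate 3 (4.77% of all genes), and 2 of 27 varied without replicate 3 (3.17% of all genes). The median of the list was 319 CPM, and 42.8% of all genes between 300 and 1000 CPM varied. The pharyngeal muscle list, with fewer genes, held 0.0590% ± 0.00408 over 9 genes, with the myosins myo-1 and myo-2 at 154 ± 3.63 CPM and 154 ± 21.5 CPM. By the homogeneity test 0 of 8 tested varied (10.4% of all genes), and 2 had an unadjusted p under 0.05.

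The actins held 0.491% ± 0.00494, but act-1 and act-3 were listed at 0 in every library. These genes are near-identical to other actins and reads that match several genes may not have been assigned. The values of act-4 (2448, 2476 and 2267 CPM) and act-2 (851, 891 and 1054 CPM) are therefore uncertain, and the actin share may be too low. act-5, the actin of intestinal microvilli, had 1589, 1599.7 and 1554 CPM. The beta-tubulin tbb-2 averaged 1347 ± 74.3 CPM and the alpha-tubulin tba-2 998 ± 41.7 CPM, and 1 of 13 tested tubulins varied (10.4% of all genes).

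Nuclear-encoded respiratory chain and ATP synthase genes held 1.74%, 1.69% and 1.74%, the smallest relative spread of the 11 lists above 1%. All 51 had at least 10 reads and 3 of 51 tested varied (10.4% of all genes). Behind atp-1 and atp-2 came ucr-1, a core subunit of complex III, at 653 ± 20.7 CPM and atp-5 at 633 ± 40.6 CPM. The 10 protein-coding genes of mitochondrial DNA that were counted here held 0.0314% ± 0.00499. Whether mitochondrial ribosomes were recovered as fully as cytosolic ones was not tested, so this share is not set against the nuclear-encoded one. The cytochrome oxidase subunit ctc-1 had 72.0, 59.9 and 76.5 CPM and ctc-2 had 76.8, 45.3 and 54.3 CPM.

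Citrate and glyoxylate cycle genes held 1.03% ± 0.0433. Aconitase aco-2 averaged 1485 ± 70.4 CPM and citrate synthase cts-1 1237 ± 40.9 CPM. icl-1, the bifunctional glyoxylate cycle enzyme that lets worms make sugar from fat, had 1137, 1094 and 1678 CPM and was highest in replicate 3. Glycolysis held 0.523% ± 0.00903, led by enolase enol-1 at 1109 ± 67.3 CPM, and the V-ATPase 0.733% ± 0.0214, led by vha-13 at 1023 ± 22.6 CPM. The V-ATPase subunit vha-12 had 923, 915 and 921 CPM.

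Fatty acid activation and beta-oxidation held 1.06% ± 0.0493, led by acdh-1, an enzyme of the propionate shunt, at 2329.7, 2281 and 1964 CPM, and ech-6 at 1291, 1276 and 1321 CPM. Fatty acid synthesis, desaturation and elongation held a smaller share, with 0.431%, 0.450% and 0.341%, lowest in replicate 3. Fatty acid synthase fasn-1 had 756, 879.9 and 704 CPM. The elongase elo-6, which serves branched-chain fatty acids, had 563, 646 and 311 CPM. Acetyl-CoA carboxylase pod-2 had 381, 332 and 247 CPM, and for all 3 genes replicate 3 lay below both other libraries. 10 of 21 tested varied (10.4% of all genes) and all 10 were lowest in replicate 3 (4.77% of all genes). With replicate 3 left out, 1 of 20 passed, near the 3.17% of all genes. The methionine cycle and phosphocholine list held 0.479% ± 0.0444, led by ahcy-1, which clears S-adenosylhomocysteine, at 2103, 1684 and 1769.5 CPM. Its 6 varied members, of 12 tested, were all highest in replicate 1, against 10.4% of all genes that varied and 3.09% that varied with replicate 1 highest. Without replicate 1, 1 of 12 varied (8.26% of all genes).

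Yolk genes were already well covered at this stage, with 1.01%, 0.757% and 0.856% of footprints on 6 genes. vit-2 had 3189.6, 2444 and 2572 CPM, vit-1 had 899.6, 628 and 852 CPM and vit-5 had 456, 273 and 434 CPM. vit-3 had 164, 101 and 161 CPM and vit-4 150.0, 92.9 and 148 CPM. All 6 varied (10.4% of all genes), each highest in replicate 1 (3.09% of all genes) and lowest in replicate 2 (2.43% of all genes). Between replicates 1 and 2 alone all 6 also passed (3.17% of all genes). vit-3, vit-4 and vit-5 are near copies of each other, so their separate values are uncertain and the 6 genes may not be 6 separate counts.

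Intestinal markers held 1.04%, 1.04% and 0.866%, lowest in replicate 3. The aspartyl proteases asp-3 and asp-1 had 1644, 1790.0 and 1649 CPM and 1435, 1459 and 1055 CPM, and the lysozyme lys-1 had 881, 848 and 619 CPM. 15 of 24 tested varied (10.4% of all genes), 14 of them lowest in replicate 3 (4.77% of all genes). With that library left out 3 of 24 passed, against 3.17% of all genes. Lysosomal proteases, which share asp-1 and asp-3 with that list, held 1.03% ± 0.0784, led by the cathepsin L cpl-1 at 1769 ± 40.5 CPM. Of the immune families, C-type lectins held 0.424% ± 0.0443, and clec-63 alone gave 29.4% of that with 1358, 1357 and 1021 CPM. In this family 70 of 240 genes had no read.

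Detoxification genes together held 0.753% ± 0.0878. The glutathione S-transferase gst-1 had 474, 641 and 940.4 CPM and gst-4, a common reporter of oxidative stress, had 149, 173 and 206 CPM. Replicate 1 was lowest for both. The cytochrome P450 genes cyp-35A2 and cyp-35C1 had 85.99, 142 and 148 CPM and 75.6, 135 and 156 CPM, and the glucuronosyltransferase ugt-62 had 439, 671 and 564 CPM. 9 of 23 tested glutathione S-transferases varied, 7 lowest in replicate 1. So did 10 of 32 tested cytochrome P450 genes (7 lowest in replicate 1) and 15 of 46 tested glucuronosyltransferases (11 lowest in replicate 1). Over all genes 10.4% varied, and 3.23% varied with replicate 1 lowest. Without replicate 3 the counts were 2 of 20, 5 of 28 and 7 of 43 for these families in the same order, against 3.17% of all genes. Without replicate 1 they were 5 of 22, 7 of 30 and 9 of 43, against 8.26%.

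Protein folding genes differed between libraries. The HSP70 and HSP90 systems held 1.22%, 1.16% and 1.63%. Beyond hsp-1 and hsp-90, the HSP70 exchange factor hsp-110 had 1000.2, 1021 and 1445 CPM and the J-protein dnj-13 had 453, 385 and 476 CPM. All 10 members varied and all were highest in replicate 3, against 3.74% of tested genes that varied with replicate 3 highest. With replicate 3 left out, 2 of 10 passed (3.17% of all genes). The CCT chaperonin, which folds actin and tubulin, held 0.399%, 0.413% and 0.511%. 7 of 8 tested CCT subunits varied (10.4% of all genes), all highest in replicate 3 (3.74% of all genes), with cct-5 at 619, 628 and 803 CPM. Without that library 0 of 8 passed the homogeneity test (1 at an unadjusted p under 0.05), against 3.17% of all genes. The median of the list was 557 CPM, and 42.8% of all genes between 300 and 1000 CPM varied. The proteasome held 0.891% ± 0.0487, and 4 of 33 tested varied, against 10.4% of all genes. The median of that list was 264 CPM, and 19.6% of all genes between 100 and 300 CPM varied.

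In the endoplasmic reticulum, folding and translocation genes held 1.31%, 1.49% and 1.62%. 11 of 22 tested varied (10.4% of all genes), 9 of them lowest in replicate 1 (3.23% of all genes). Of the 11, 5 were highest in replicate 2 (3.59% of all genes) and 5 in replicate 3 (3.74% of all genes). Without replicate 1, 3 of 22 varied (8.26% of all genes), and without replicate 3, 7 of 22 (3.17% of all genes). The median of the list was 374 CPM, and 42.8% of all genes between 300 and 1000 CPM varied. Calreticulin crt-1 had 1844, 2004 and 1967 CPM and the disulfide isomerase pdi-2 had 1256, 1686 and 1596 CPM, both lowest in replicate 1. hsp-4, the stress-inducible BiP chaperone, had 1009, 1168 and 3139.7 CPM (chromosome II, 7350121 to 7352636). hsp-3, the constitutive BiP, had 1305, 1506 and 1441 CPM, so the 2 BiP genes were closer to each other in replicates 1 and 2 than in replicate 3. xbp-1, the transcription factor of the unfolded protein response and chosen after its values were seen, had 367, 349 and 567 CPM.

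Small heat shock proteins, which hold unfolded proteins, had 0.0930%, 0.116% and 0.202%. hsp-16.2 had 107, 166 and 502 CPM (chromosome V, 1804334 to 1804971) and hsp-16.41 had 109.8, 208 and 534 CPM. Every member of the list with at least 30 reads was tested and 3 of 8 tested varied (10.4% of all genes), namely these and hsp-17. All 3 are also among the 10 genes of widest spread named below. The list's leading member sip-1 had 326, 312 and 361 CPM and did not pass. 3 of 8 passed without replicate 3 (3.17% of all genes).

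Footprints on the pan-neuronal marker list were few, and a list's sum depends on its members, so it is no measure of a tissue. The 22 pan-neuronal genes held 0.0904% ± 0.00801, and each had at least 10 reads. The ankyrin unc-44 had 237, 224 and 173 CPM, the synaptobrevin snb-1 82.9, 92.4 and 83.02 CPM and the neuropeptide convertase egl-3 99.4, 85.6 and 61.3 CPM. Neuropeptide precursor genes held 0.264% ± 0.0222, led by nlp-77 (662 ± 43.02 CPM) and nlp-33 (553 ± 72.7 CPM). Part of that family is not neuronal, so neither its share nor its leading members, nlp-33 among them, are read as neuronal here. For example, nlp-29, nlp-30 and nlp-31 encode antimicrobial peptides of the epidermis. They had 39.6, 44.8 and 120.5 CPM, 53.1, 45.9 and 103.6 CPM and 43.3, 41.4 and 117 CPM, each highest in replicate 3. Chemoreceptors, a large receptor family with 1314 genes here, held 0.0187% ± 0.00162, and 1068 of them had no read. srr-4 led them with 31.1, 25.7 and 33.1 CPM.

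Germ line genes held 0.704% ± 0.0152 over 54 members and 2 of 46 tested varied (10.4% of all genes). The P-granule helicase cgh-1 had 1220.4, 1089 and 1214 CPM, the RNA-binding protein car-1 909, 866 and 924 CPM and the helicase glh-1 762, 774 and 743 CPM. Sperm genes held 0.288% ± 0.0215, with spe-15, a myosin of sperm formation, at 203, 169 and 196.4 CPM and the chromatin protein spch-1 at 134, 90.1 and 137 CPM. The major sperm proteins summed to 1020.3, 906 and 1135 CPM over 31 near-identical genes, whose separate values are uncertain. Their sum, and with it the share of the sperm list, is too low if reads that match several genes were not assigned. Oocyte and eggshell genes held 0.179% ± 0.0117, led among those named in the table by cpg-7 at 345 ± 18.8 CPM and perm-4 at 316 ± 60.1 CPM. The oocyte maturation factor oma-2 had 4.88, 2.80 and 5.97 CPM. Argonautes, many of which act in the germ line, held 0.256% ± 0.00142, with wago-1 at 553, 556 and 554 CPM. The list had the smallest relative spread of the 62, an extreme picked from many that was not tested against counting error.

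The genes listed for DNA replication and division took little. The 6 MCM helicase genes held 0.0483% ± 0.00307, led by mcm-2 at 98.2 ± 6.39 CPM, and cyclins and cell cycle kinases held 0.101% ± 0.00446, led by bub-1 at 119.8 ± 8.27 CPM. In these lists 0 of 6 and 0 of 19 tested genes passed the homogeneity test (10.4% of all genes), and 0 and 3 had an unadjusted p under 0.05. Core histones held 0.0884% ± 0.00539, but 40 of 74 had no read, and most are near-identical copies, so this share may be too low. Regulators were low as well: 272 nuclear hormone receptors held 0.182% ± 0.00987, led by nhr-68 at 116 ± 4.22 CPM, and 82 homeobox genes held 0.0477% ± 0.00317. Of 331 F-box genes 159 had no read.

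Genes that the table names by sequence alone were 49.4% of genes and held 24.2% ± 0.236 of footprints. 9 of them were among the 100 genes with the most reads. After C17F4.7 these were F41F3.3 with 2035, 2035 and 2192 CPM (chromosome V, 4647665 to 4648241) and F46H5.3 with 1886, 1891 and 1929 CPM (chromosome X, 7230481 to 7238662), both named after their values were seen.

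Footprints were unevenly spread over chromosomes. Chromosome III held 13.3% of genes and 18.8% ± 0.238 of reads, and chromosome I 14.4% of genes and 19.7% ± 0.134 of reads. Chromosome V, home to 889 of the chemoreceptors, held 24.7% of genes and 16.414% ± 0.134 of reads. The X chromosome held 13.8% of genes and 11.2%, 11.3% and 10.5% of reads, lowest in replicate 3. Sperm and oocyte lists, as matched to the table's names, had 0 members on X, and the large-subunit ribosomal protein list had 2. Body wall muscle had 9 of its members there, with 21.6% of the list's reads.

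Across all genes the libraries ranked genes alike, with Spearman correlations of 0.972, 0.969 and 0.972 between pairs, as a description over genes that share a library. Of 10212 tested genes 1065 varied, 10.4%. The count was 289 of 9110 with replicate 3 left out, against 756 without replicate 2 and 770 without replicate 1. The biological coefficient of variation was 11.2%, and 7.74% without replicate 3. Among 1999 genes of at least 100 CPM, 1 gene was 2-fold apart between replicates 1 and 2, 19 between 1 and 3 and 12 between 2 and 3.

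The widest spread among genes of at least 100 CPM was that of ckb-2, a choline kinase, with 43.3, 40.9 and 243 CPM and a coefficient of variation of 106%. Behind hsp-16.2 and hsp-16.41 came oac-14, an acyltransferase-like gene, with 81.1, 128 and 310.4 CPM, and then hsp-4. The inducible HSP70 hsp-70 had 155, 154 and 402 CPM, ora-1 had 82.3, 128 and 242 CPM and hsp-17 had 108, 189.7 and 299.5 CPM. The remaining 2 of the 10, Y38E10A.22 and Y94H6A.10, had 96.4, 114 and 237 CPM and 847, 799.8 and 1791 CPM. All 10 were highest in replicate 3, and they were picked by their spread, so no test is given for it. The smallest spread was that of ech-1.2 (442, 439.9 and 442 CPM), wago-1, npp-9 (304, 306 and 304 CPM), zig-11 (229, 228 and 228 CPM) and ltah-1.1 (226, 226 and 225 CPM). These were picked by their spread as well. Counting alone gave a median coefficient of variation of 6.07% between 100 and 300 CPM and 3.56% between 300 and 1000 CPM. Values this low therefore do not show that these genes are steadier than others of their level.

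**Figure D4:**
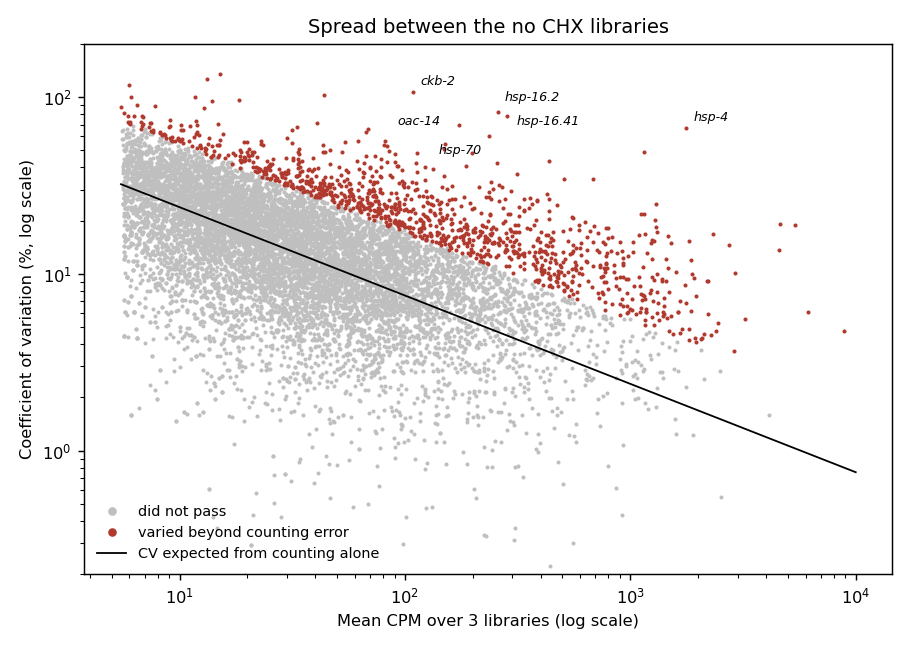
Coefficient of variation over the 3 no CHX libraries (%, y axis, log scale) against mean CPM (x axis, log scale) for genes with at least 30 reads, red where the gene varied and grey where it did not pass. The black line is the spread expected from counting alone, and ckb-2, oac-14 and the named heat shock genes lie far above it.

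On the cuticlin and precuticle list 14 of 30 tested varied (10.4% of all genes). Of these 10 were lowest in replicate 1 (3.23% of all genes), 1 in replicate 2 and 3 in replicate 3. Without replicate 1, 4 of 25 varied (8.26% of all genes). Genes of this group were also picked with their values in view. The protease inhibitor-like mlt-11 had 56.1, 165 and 118 CPM, the precuticle protein noah-1 41.5, 129 and 78.1 CPM and lpr-3, a lipocalin of the precuticle, 7.93, 44.8 and 42.3 CPM. The furrow collagens, which pattern the annuli of the cuticle and were likewise chosen afterwards, had few reads: dpy-2 had 3.049, 25.2 and 7.05 CPM, dpy-3 0.610, 8.96 and 8.14 CPM and dpy-10 0, 4.48 and 3.80 CPM. bli-1, a collagen of adult cuticle struts, had 192, 335 and 199.7 CPM, highest in replicate 2. col-19, an adult collagen, had 689.8, 527 and 575 CPM, highest in replicate 1. Whether these differences share a source with the chaperone, intestinal or yolk differences was not tested.

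**Figure D5:**
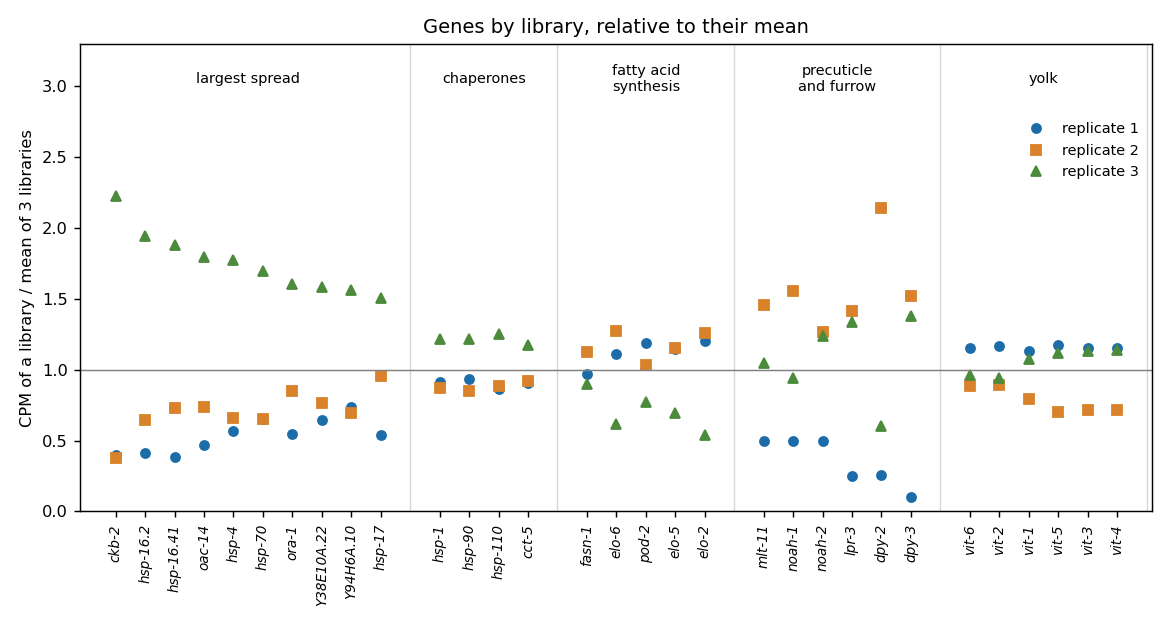
CPM of each library divided by the gene's mean over the 3 no CHX libraries (y axis) for 5 sets of genes (x axis), with a marker for each library. Several genes were chosen for their spread, and replicate 3 is highest for the widest-spread genes and the chaperones drawn and lowest for the fatty acid synthesis genes drawn, replicate 1 is lowest for the precuticle and furrow genes drawn, and replicate 2 is lowest for the yolk genes.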

How the data were processed

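Per the labels' protocols, worm ribosomes were spun through 34% sucrose and footprints of 26 to 34 nucleotides were gel-purified for a D-Plex library. The authors deposited raw counts of footprint reads per coding gene, on genes of WBcel235 per the submitters' processing notes, which also name DESeq2. How reads were aligned, how rRNA, molecular identifiers, strand and multiple matches were handled, is not given in the sources used here. Reads may therefore not be independent molecules, and near-identical or overlapping genes are uncertain.

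From the counts, CPM on the column total, list shares and the chi-square test (scipy 1.17.1, 2 degrees of freedom, tested on simulated data) were computed. The biological coefficient of variation came from edgeR 4.0.16 in R 4.3.3 (intercept only, filterByExpr minimum count 10). Members, gene lists and tests were chosen with earlier results of these data known. After the lists' values were seen, a few wrongly matched genes were taken out of their lists (aha-1, serpins, cpx-1 among the epidermis markers, some lim genes), his-24 was moved to the linker histones and the furrow collagen list was added. 30 genes stand on more than 1 list. Named genes are the 20 with the most footprints, up to 5 leading members and the lowest member of a list, rpl-36.A, and the 10 widest and 5 narrowest in spread of at least 100 CPM. Others (xbp-1, noah-1, noah-2, lpr-3, elo-2, elo-5, bli-1, col-19, F41F3.3, F46H5.3 and the furrow collagens) were picked with their values in view. nlp-29, nlp-30 and nlp-31, which are not all leading members, were also named with their values known. Alternatives covered scaling, count minimums, summed gene copies, the 100 most abundant genes and each library left out. Footprints per codon within complexes, planned, gave no result because coding lengths were not used here.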

Additional observations from a re-analysis of the deposited data

How the results depend on the processing

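The number of genes that varied ran from 289 to 770 with a library left out, against 1065, and the 289 came without replicate 3. A test on 2 libraries has fewer reads and fewer degrees of freedom, and each is the pairwise test of the libraries that remain. With all 3 libraries the test gave 1112 genes with TMM library sizes, 1035 at a minimum of 10 reads and 1059 at 100. The biological coefficient of variation ran from 7.74% to 12.7% with a library left out, against 11.2%, and changes over 10% of the value were counted as moved, a tolerance chosen after the values were seen. Over all alternatives, the number of genes holding 50% of reads ran from 631 to 651, the number detected from 11619 to 15896, and the share of the 100 most abundant genes from 18.9% to 19.3%. Shares of lists and chromosomes with a library left out lie within 1 SD of the mean of 3 by construction, so that alternative says little about them.

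Leaving the 100 most abundant genes out of list and total alike moved 60 of 62 list shares by more than the SD between libraries, 42 up and 18 down, and the total is smaller for every list. Cytosolic large-subunit ribosomal proteins then held 2.72%, cytosolic small-subunit ribosomal proteins 1.93%, translation initiation factors 1.14%, translation elongation and termination factors 0.536%, and aminoacyl-tRNA synthetases 0.890%. Mitochondrial ribosomal proteins then held 0.646%, nuclear-encoded respiratory chain and ATP synthase 1.51%, mitochondrial-DNA encoded proteins 0.0387%, cytosolic chaperones of the HSP70 and HSP90 systems 0.415%, and CCT chaperonin 0.544%. Proteasome then held 1.10%, ER folding and translocation 0.662%, ribosome biogenesis 0.744%, core histones 0.109%, and linker histones 0.0568%. Cuticle collagens then held 3.303%, basement membrane 0.785%, cuticlins and precuticle 0.242%, hedgehog-related and patched-related 0.663%, and astacin metalloproteases 0.106%. Actins then held 0.115%, tubulins 0.340%, body wall muscle 1.21%, pharyngeal muscle 0.0729%, and pharyngeal gland and lining 0.208%. Intestine then held 0.644%, epidermis 0.387%, pan-neuronal 0.112%, neuropeptide precursors 0.326%, and germ line 0.869%. Sperm then held 0.355%, oocyte and eggshell 0.221%, vitellogenins 0.179%, somatic gonad and uterus 0.151%, and excretory and coelomocyte 0.0645%. V-ATPase then held 0.905%, glycolysis 0.647%, citrate and glyoxylate cycle 0.777%, fatty acid synthesis, desaturation and elongation 0.503%, and fatty acid activation and beta-oxidation 0.876%. Lipid-binding proteins then held 0.263%, methionine cycle and phosphocholine 0.363%, lysosomal proteases 0.683%, antioxidant enzymes 0.304%, and glutathione S-transferases 0.288%. Cytochrome P450 then held 0.129%, UDP-glucuronosyltransferases 0.513%, C-type lectins 0.370%, lysozymes and saposin-like 0.580%, and small antimicrobial peptides 0.111%. Transthyretin-like then held 0.584%, nuclear hormone receptors 0.225%, homeobox 0.0589%, chemoreceptors 0.0231%, and F-box 0.105%. BATH and MATH domain then held 0.0981%, MCM helicase 0.0597%, cyclins and cell cycle kinases 0.125%, Argonautes 0.316%, and developmental timing 0.0426%. Chromosome I then held 18.8%, chromosome II 16.17%, chromosome III 18.2%, chromosome IV 18.03%, and chromosome MtDNA 0.0387%. Chromosome V then held 17.02%, and chromosome X 11.8%.

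Adding 62 sequence-named genes to 24 lists by their RefSeq symbols, chosen after seeing the data, moved 6 shares by more than the SD: 1.79% for nuclear-encoded respiratory chain and ATP synthase, 0.637% for ribosome biogenesis, 0.312% for sperm, 0.244% for oocyte and eggshell, 0.0909% for excretory and coelomocyte, 0.259% for Argonautes.

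No paired analysis was possible because no groups are compared. Footprints per codon within complexes, shares per codon and amino acid composition were not run, since coding lengths and proteins were not used here. Between 10 and 30 CPM the median coefficient of variation was 18.4%, against 18.1% from counting alone, so depth limits what can be seen of low genes.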
